A study of Homo sapiens with 6 samples.

Results

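Caspases and the proteins that hold them in check were followed through 8 genes of the deposited count table, which lists 39323 genes in all. They were the initiator caspases CASP8, CASP10, CASP9 and CASP2, the effector caspase CASP6, and the inhibitors CFLAR, XIAP and BIRC2, taken by gene symbol. All 8 passed the filter on low counts. The cells were MDA-MB-231, a human breast cancer cell line without oestrogen and progesterone receptors. The series asked what SF3B6, a small subunit of the SF3b complex that recognises the branch point of introns, does in these cells. The groups were siSF3B6, 3 RNA-seq libraries from cells given an siRNA duplex against SF3B6, and siNC, 3 libraries from cells given a non-targeting duplex, all from polyadenylated RNA. A lipid reagent carried the duplex in both groups, and SF3B6 was targeted with a single one. The sense strands are given because they define the groups, with the paired bases in capitals and the overhang in lower case.

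siSF3B6: GGAGGAACAGUUGAAGCUUtt
siNC: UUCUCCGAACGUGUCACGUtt

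Caspases are cysteine proteases that are made as inactive precursors. Initiator caspases are activated on protein platforms. These are death receptor complexes for caspase-8 and caspase-10, and the APAF1 apoptosome for caspase-9, after cytochrome c leaves mitochondria. Caspase-2 is activated on a platform of PIDD1 and CRADD. Caspase-8, caspase-10 and caspase-9 then cleave effector caspases. The step below death receptors is controlled by CFLAR (c-FLIP), a caspase-8 relative that lacks protease activity, and the later steps by XIAP, which binds and inhibits caspases directly, and by BIRC2 (cIAP1), a ubiquitin ligase that acts mainly on RIPK1 and NF-kB signalling. Gene-level read counts measure neither processing of the precursors nor the splice forms of CASP2 and CFLAR, whose long and short products differ in function.

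Gene totals were 30684131 to 38546037 reads in the siSF3B6 libraries and 28504091 to 33754386 in the siNC libraries. Levels are TMM-scaled CPM, reads scaled to each library's total after that total was adjusted by a TMM factor. SF3B6 itself had 22.5, 25.0 and 21.3 CPM in siSF3B6, against 86.3, 80.4 and 102 CPM in siNC, which left 25.6% of the siNC level. Mitochondrially encoded genes took 10.6% to 11.8% of reads in siSF3B6, and 3.38%, 3.93% and 9.07% in siNC replicates 1, 2 and 3, so that this share in siNC replicate 3 was close to that of the siSF3B6 libraries. The line markers VIM, CD44, AXL and MSN were abundant in every library (summed 5000 to 5250 CPM in siSF3B6 and 4630 to 5250 CPM in siNC). ESR1 averaged 0.0398 CPM in siSF3B6 and 0.107 CPM in siNC, and the 5 markers of leukocytes, endothelium, hepatocytes and muscle summed to 7.75 to 9.41 CPM in siSF3B6 and 8.92 to 10.5 CPM in siNC, most of it PECAM1. The epithelial markers CDH1 (6.62 CPM in siSF3B6 and 4.49 in siNC) and EPCAM (22.8 CPM in siSF3B6 and 10.7 in siNC) were low but rose, while KRT8 was abundant (1130 CPM in siSF3B6 and 1030 in siNC) and did not pass (edgeR adjusted p = 0.277). Their part in the results was not tested, nor was that of the mitochondrial share. Replicates are called biological in the series' design, but no label names their cultures or days, and a p-value here sets the difference between groups against the variation among these libraries, which may be technical.

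Of the 8 genes, 4 rose in siSF3B6 and 0 fell at an adjusted p under 0.05 (edgeR quasi-likelihood test, Benjamini-Hochberg over all 16869 genes tested; at an unadjusted p under 0.05 also 0 fell, and DESeq2 called 0 lower). The 4 were BIRC2, CASP2, CASP8 and CASP6, with CPM 1.21 to 1.59 times those of siNC. In RNA from whole cultures a change in some cells and a smaller change in all cells cannot be told apart. Across all genes 40.8% passed the threshold, 20.8% upward and 20.0% downward. That is 3509 genes upward and 3380 downward, and with scaling by total reads alone 2459 upward and 4558 downward. For the same 4 genes every siSF3B6 library lay above every siNC library, and the groups of the other 4 overlapped. Groups did not overlap for 52.1% of all genes, with siSF3B6 above for 26.3% and below for 25.9%. The median log2 fold change of the 8 genes was 0.17, against 0.001 for all genes tested.

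**Figure D1:**
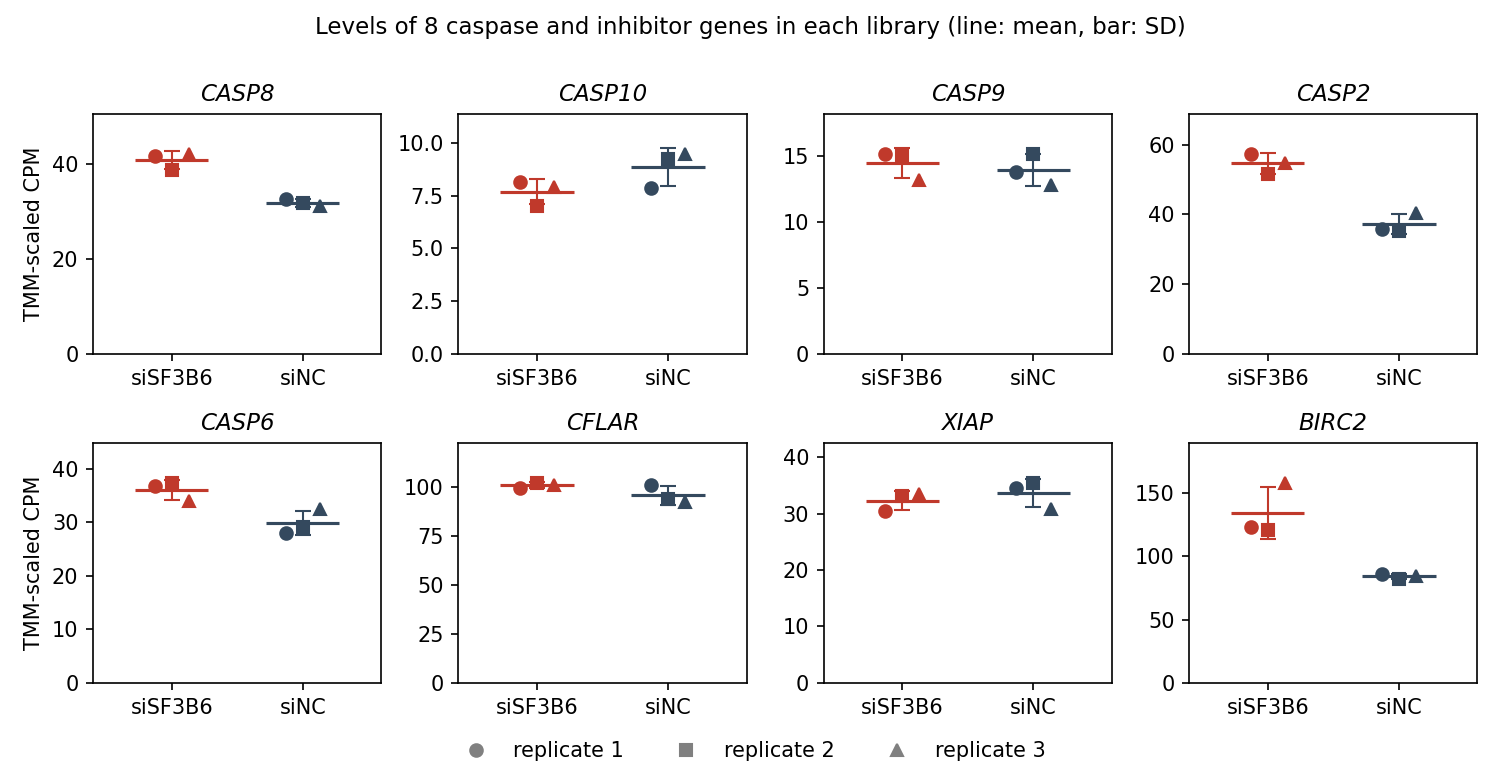
TMM-scaled CPM of the 8 genes (vertical axis, linear and starting at 0) in the 3 siSF3B6 and 3 siNC libraries, with a symbol per replicate, a line at the mean and a bar for the SD. The siSF3B6 libraries lie above all siNC libraries for CASP8, CASP2, CASP6 and BIRC2, and the groups overlap for CASP10, CASP9, CFLAR and XIAP.

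CASP8, the initiator recruited by FADD to death receptors, lies on chromosome 2 at 201233443 to 201287711, plus strand (ENSG00000064012.22; positions here are those of GENCODE 29 on GRCh38). It had 41.7, 38.7 and 42.2 CPM in siSF3B6 replicates 1, 2 and 3, against 32.7, 31.8 and 31.1 CPM in siNC replicates 1, 2 and 3. The lowest siSF3B6 library was above the highest siNC library. The log2 fold change was 0.36 (SE 0.0816, edgeR adjusted p = 0.0035, n = 3 and 3). The exact permutation test, two-sided, gave p = 0.1 for it and for each of the other genes that rose, and 3 libraries against 3 cannot give less. When siNC replicate 3 alone served as control, with the spread taken from the siSF3B6 libraries, CASP8 stood at 0.38 and its call was lost (adjusted p = 0.0823). Correction for transcript GC content and length by an offset gave 0.23, and CASP8 passed (adjusted p = 0.00933).

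CASP10 (ENSG00000003400.15), the closest relative of caspase-8, is its neighbour on chromosome 2 at 201182881 to 201229406, plus strand. It was the least abundant of the 8 genes, with 8.13, 7.03 and 7.91 CPM in siSF3B6 and 7.84, 9.23 and 9.49 CPM in siNC. One siNC library fell within the range of the siSF3B6 libraries. Its log2 fold change of -0.21 (95% interval -0.46 to 0.05) did not pass the threshold (edgeR adjusted p = 0.186), and it passed in 1 alternative, the offset for GC content and transcript length (-0.28, adjusted p = 0.0462), but not with that offset in the fit with the replicate number as a block (adjusted p = 0.0732). The interval reaches from a level of CASP10 well below that of siNC to one slightly above it.

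CASP9 (ENSG00000132906.18; chromosome 1 at 15490832 to 15526534, minus strand), the initiator of the mitochondrial pathway, had 15.2, 15.1 and 13.2 CPM in siSF3B6 and 13.8, 15.2 and 12.8 CPM in siNC. The groups covered almost the same range. CASP9 differed by 0.06 on the log2 scale (95% interval -0.16 to 0.28, edgeR adjusted p = 0.677), and -0.05 when libraries were scaled by total reads alone, a scaling that moved the median of all genes by -0.10, so that CASP9 was above that median in either case.

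CASP2 (ENSG00000106144.20; chromosome 7 at 143288215 to 143307696, plus strand), the caspase of the PIDD1 platform, showed the largest difference among the caspases described. It had 57.4, 51.6 and 54.8 CPM in siSF3B6, against 35.8, 35.3 and 40.5 CPM in siNC. Its means were 54.6 ± 2.92 CPM in siSF3B6 and 37.2 ± 2.88 CPM in siNC (SD, n = 3 each), and the gap between the groups exceeded the range within either. CASP2 had a log2 fold change of 0.55 (SE 0.087, edgeR adjusted p = 0.000278), and 21.1% of all tested genes had a larger absolute change. It was 0.43 with the GC and length offset and the replicate block (adjusted p = 0.000991) and 0.42 against siNC replicate 3 alone, where the call was lost (adjusted p = 0.0558).

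CASP6 (ENSG00000138794.10; chromosome 4 at 109688622 to 109703583, minus strand), an effector caspase known for cleaving nuclear lamins, had 36.8, 37.4 and 33.9 CPM in siSF3B6 and 28.0, 29.2 and 32.4 CPM in siNC. The groups came close, at siSF3B6 replicate 3 and siNC replicate 3. The log2 fold change was 0.27 (SE 0.0886, edgeR adjusted p = 0.0258), the smallest of the 4 calls. This call depended on single libraries. It was lost without siSF3B6 replicate 1 (log2 fold change 0.25, adjusted p = 0.0934), without siSF3B6 replicate 2 (0.24, adjusted p = 0.0941), without siNC replicate 1 (0.22, adjusted p = 0.135) and without siNC replicate 2 (0.25, adjusted p = 0.0991). It was also lost with scaling by total reads alone (0.17, adjusted p = 0.144), with limma on log2(FPKM + 1) (adjusted p = 0.061) and against siNC replicate 3 alone (0.14, adjusted p = 0.521). Among the libraries numbered 1 and 2, which within each group lay closest to each other, the log2 fold change was 0.38.

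CFLAR (ENSG00000003402.20; chromosome 2 at 201116104 to 201176687, plus strand) had the highest CPM of the 8 genes in siNC. It had 99.4, 102 and 101 CPM in siSF3B6, against 101, 93.7 and 91.9 CPM in siNC. The first siNC library lay within the range of the siSF3B6 libraries. For CFLAR the log2 fold change was 0.08 (95% interval -0.08 to 0.24, edgeR adjusted p = 0.433), and it was -0.03 with scaling by total reads alone and -0.02 with the GC and length offset, so its direction was not fixed. CFLAR, CASP10 and CASP8 follow each other on the same strand within 171608 bases, with 6193 bases between CFLAR and CASP10 and 4036 between CASP10 and CASP8. Over this cluster the fitted log2 fold changes were 0.08, -0.21 and 0.36 in map order.

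XIAP (ENSG00000101966.13; chromosome X at 123859724 to 123913979, plus strand), the inhibitor that binds caspase-9 and some effector caspases, had 30.4, 33.1 and 33.4 CPM in siSF3B6 and 34.6, 35.5 and 30.8 CPM in siNC. The groups overlapped, with siNC replicate 3 within the range of the siSF3B6 libraries. The log2 fold change was -0.06 (95% interval -0.25 to 0.13, edgeR adjusted p = 0.623). It was -0.26 with the GC and length offset and passed the threshold there (adjusted p = 0.0252, and 0.00538 with the replicate block), and it was 0.05 against siNC replicate 3 alone. GC content of the longest XIAP transcript was 39.0%, at percentile 11.6 of tested genes.

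BIRC2 (ENSG00000110330.9; chromosome 11 at 102347211 to 102378670, plus strand) had the largest log2 fold change of the 8 genes. It had 123, 121 and 158 CPM in siSF3B6, against 86.1, 81.8 and 84.4 CPM in siNC. The siNC libraries were close together, and siSF3B6 replicate 3 stood above the other siSF3B6 libraries. The log2 fold change was 0.67 (SE 0.0998, edgeR adjusted p = 0.000185), with 14.1% of all tested genes changing more. It passed the threshold in all 21 alternatives, at 0.46 to 0.74, with 0.53 without siSF3B6 replicate 3 and 0.65 against siNC replicate 3 alone (adjusted p = 0.0171). BIRC2 transcripts are also low in GC content, 38.0% in the longest, at percentile 8.16, and 0.46 was the value with the GC and length offset and the replicate block.

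**Figure D2:**
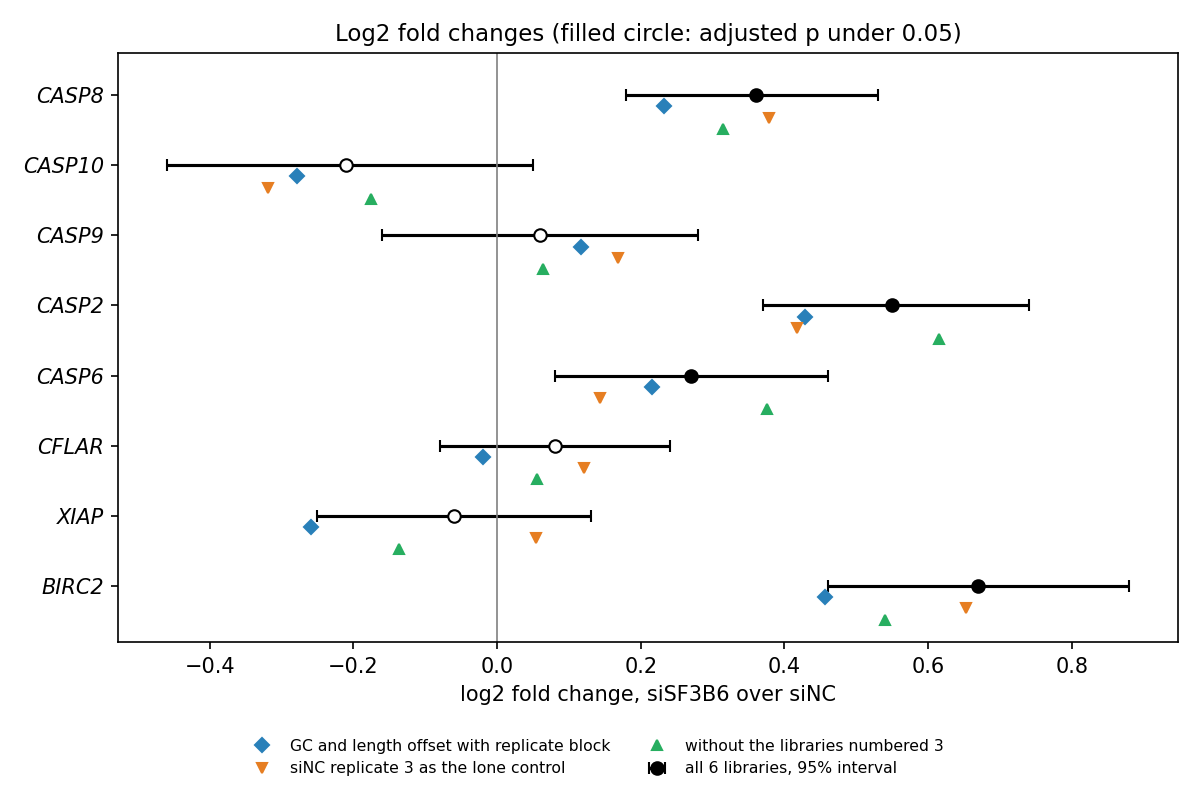
Log2 fold change of each gene, siSF3B6 over siNC (horizontal axis), with its 95% interval from all 6 libraries (circle, filled where the adjusted p was under 0.05) and its value with the GC and length offset and replicate block (diamond), against siNC replicate 3 alone (downward triangle) and without the libraries numbered 3 (upward triangle). BIRC2, CASP2, CASP8 and CASP6 stay to the right of 0 in each, CASP10 to the left, and XIAP and CFLAR change side.

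Levels of different genes were compared with the authors' deposited FPKM, which divides by gene length. In siSF3B6 the order was BIRC2 (24.4 ± 3.73 FPKM, SD, n = 3), CASP6 (15.3 ± 0.815), CASP2 (5.62 ± 0.29), CASP8 (4.66 ± 0.21), CFLAR (3.70 ± 0.0611), XIAP (2.97 ± 0.153), CASP9 (2.27 ± 0.176) and CASP10 (0.84 ± 0.0624). In siNC the order was the same, with BIRC2 at 15.9 ± 0.521 FPKM, CASP6 at 13.2 ± 1.10, CASP2 at 3.98 ± 0.352, CASP8 at 3.77 ± 0.0839, CFLAR at 3.64 ± 0.173, XIAP at 3.20 ± 0.204, CASP9 at 2.26 ± 0.171 and CASP10 at 1.00 ± 0.0985. In siNC the libraries of CASP2, CASP8 and CFLAR overlapped, whereas in siSF3B6 these 3 did not, at 5.33 to 5.91, 4.42 to 4.81 and 3.65 to 3.77 FPKM. All other neighbours in the order were apart in siNC. A length computed from counts, gene totals and FPKM was 1.19 times the merged length of all annotated exons for each of the 8 genes. A factor common to all 8 cannot be told from a larger read total behind the FPKM. The length in use was therefore proportional to the merged exon length. That merged length is 22529 bases for CFLAR and 1943 for CASP6, so the FPKM of CFLAR, whose many annotated forms include long ones, is lowered relative to its read count.

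Balances between genes were taken as ratios of FPKM within each library. They were ratios of an inhibitor over a caspase and, for BIRC2 over XIAP, a ratio between 2 inhibitors. CFLAR over CASP8 was 0.768, 0.853 and 0.767 in siSF3B6, against 0.992, 0.949 and 0.952 in siNC. All siSF3B6 libraries were below all siNC libraries, and the ratio was 0.825 times that of siNC, with CASP8 past the threshold on its own and CFLAR not. BIRC2 over XIAP was 8.04, 7.24 and 9.39 in siSF3B6, against 4.95, 4.57 and 5.43 in siNC. Here too the groups did not overlap, and the ratio was 1.64 times that of siNC. BIRC2 was past the threshold on its own and XIAP was not. CFLAR over CASP10 had 4.10, 4.90 and 4.29 in siSF3B6 and 4.31, 3.44 and 3.28 in siNC, and its groups overlapped. XIAP over CASP9, the direct inhibitor and its target, had 1.17, 1.29 and 1.48 in siSF3B6 and 1.47, 1.37 and 1.41 in siNC, and overlapped as well. Exact two-sided permutation tests gave p = 0.1 for CFLAR over CASP8 and for BIRC2 over XIAP, 0.3 for CFLAR over CASP10 and 0.4 for XIAP over CASP9. Adjusted over the 4 ratios the values were 0.2, 0.2, 0.4 and 0.4, and 3 libraries against 3 cannot give less than 0.1 before adjustment.

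**Figure D3:**
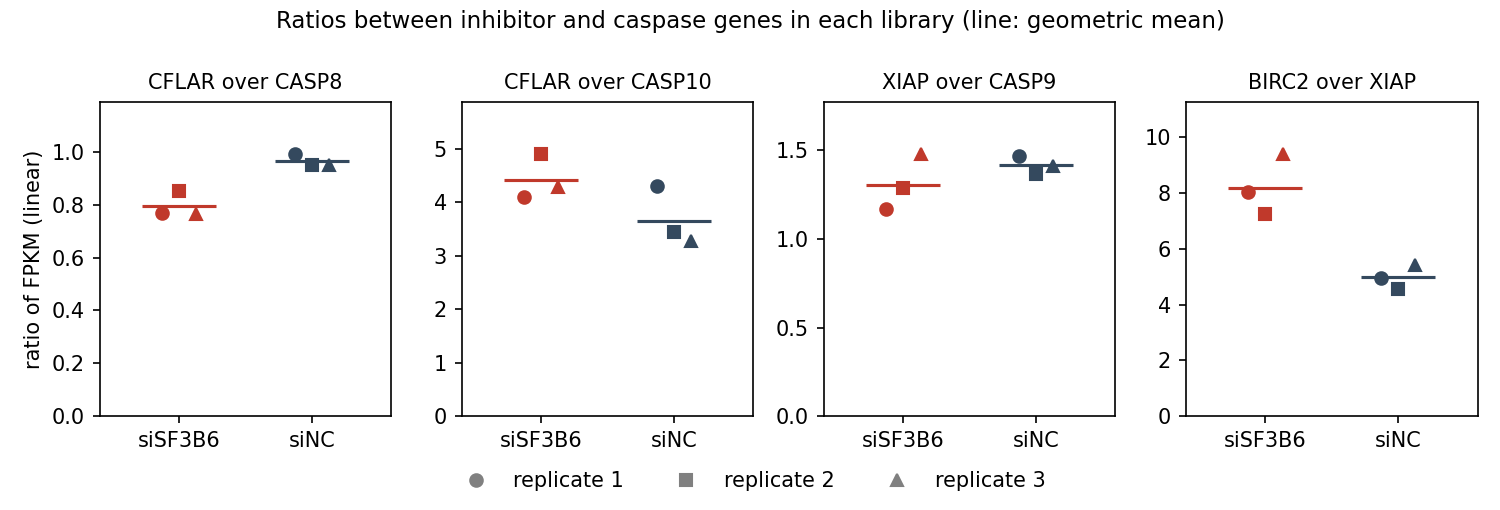
Ratio of FPKM between 2 genes in each library (vertical axis, linear and starting at 0), siSF3B6 left and siNC right, with a line at the geometric mean. CFLAR over CASP8 is lower and BIRC2 over XIAP higher in all siSF3B6 libraries than in any siNC library.

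The 8 genes share no annotated feature at an extreme of the tested genes in all of them. Their longest transcripts had 4 introns (CASP2) to 9 (CASP10 and CFLAR), at percentiles 44.2 to 68.3. GC content ran from 38.0% (BIRC2) to 52.8% (CASP9). CASP9 was at percentile 64.5, and the other 7 were at percentiles 8.16 to 40.9, below the median of the tested genes. Lengths of the longest transcripts were at percentiles 18.1 (CASP6) to 99.2 (CFLAR). CFLAR shares 10.1% of its merged exon length with genes on the opposite strand, CFLAR-AS1 and the pseudogene IMPDH1P10. It also shares 1.98% with AC007283.1 on its own strand, which a strand setting would not separate. On the opposite strand CASP6 shares 5.4% with MCUB and CASP9 2.01% with CELA2B. Whether the authors' counting used strand is not stated, and reads of these pairs may be shared. CFLAR-AS1 had 18 to 21 reads per library in siSF3B6 and 6 to 20 in siNC. IMPDH1P10 had 27 to 33 reads in siSF3B6 and 16 to 22 in siNC, and did not pass (log2 fold change 0.67, edgeR adjusted p = 0.0671). MCUB had 55.7, 58.2 and 57.5 CPM in siSF3B6 and 52.9, 50.1 and 56.1 CPM in siNC, and did not pass the threshold (log2 fold change 0.11, edgeR adjusted p = 0.303).

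Since BIRC2 and CASP8 rose while CFLAR, a gene of the same cluster as CASP8, did not pass, the 250 bases before a start of each are shown. They are the first-listed start of each gene in RefSeq on GRCh38.p14, at chr2:201233213-201233462 for CASP8, chr2:201118466-201118715 for CFLAR and chr11:102346964-102347213 for BIRC2, all on the plus strand. Capitals mark matches to the motifs searched.
CASP8: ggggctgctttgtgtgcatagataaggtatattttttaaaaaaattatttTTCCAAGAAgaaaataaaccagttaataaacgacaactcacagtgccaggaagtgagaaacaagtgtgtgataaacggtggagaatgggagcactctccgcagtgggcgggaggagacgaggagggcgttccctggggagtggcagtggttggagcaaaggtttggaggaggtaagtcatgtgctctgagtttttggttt
CFLAR: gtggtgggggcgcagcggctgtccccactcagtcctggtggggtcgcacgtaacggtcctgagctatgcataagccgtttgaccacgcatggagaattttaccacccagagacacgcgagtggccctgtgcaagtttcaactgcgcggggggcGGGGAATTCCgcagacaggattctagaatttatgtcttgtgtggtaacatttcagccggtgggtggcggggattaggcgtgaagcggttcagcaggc
BIRC2: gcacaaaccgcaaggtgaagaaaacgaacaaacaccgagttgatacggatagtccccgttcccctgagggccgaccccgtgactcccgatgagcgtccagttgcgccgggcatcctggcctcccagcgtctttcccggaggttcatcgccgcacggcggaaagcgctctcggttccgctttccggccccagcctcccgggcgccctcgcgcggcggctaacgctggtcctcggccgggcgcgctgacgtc

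Of the 8 genes, 7 had entries in that table, with 17 starts in all. The 5 motifs searched on both strands were an NF-kB type (GGG and TTCC with 3 free bases between them), an interferon-stimulated response element type (GAAA and GAAA, 2 free bases), a gamma-activated site type (TTCNNNGAA), an E2F type (TTTGGCGC) and a p53 type (CATG and CATG, 6 free bases). No match of one overlapped a match of another. The NF-kB type occurred in 1 of the 17 windows, the CFLAR window shown, at position -97 relative to the start. CFLAR had 4 windows, and the type is found in 5.67% of the 35116 windows of this length. The gamma-activated site type also occurred in 1 of the 17, the CASP8 window shown, at position -200, against 6.57% of all windows. CASP8 had 3 windows. Neither the interferon-stimulated response element type (3.02% of windows), the E2F type (0.55%) nor the p53 type (0.296%) occurred in any of the 17 windows. No match says only that these letters are not in the window. The BIRC2 window had a GC content of 67.6% and 33 CpG dinucleotides, the CFLAR window 58.8% and 17, and the CASP8 window 45.6% and 6, against medians of 58.0% and 11 over all windows.

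Genes that act with the 8 were taken from lists by function, whose counts are to be read beside the 20.8% of all tested genes that rose and the 20.0% that fell. Among IAP antagonists, proteins that bind or counter XIAP and its relatives, 1 of 4 tested genes rose, near the share of all genes, and 2 fell. XAF1, an interferon-inducible partner of XIAP, had 30.9 ± 2.60 CPM in siSF3B6 and 11.7 ± 0.846 CPM in siNC (SD, n = 3 each), a log2 fold change of 1.40 (edgeR adjusted p = 9.75e-07). HTRA2, a mitochondrial protease that can bind IAPs once released, had 26.5 ± 2.49 CPM in siSF3B6 and 42.9 ± 4.49 CPM in siNC (log2 fold change -0.70, adjusted p = 0.000164). SEPTIN4, one product of which binds XIAP, fell as well (-0.64, adjusted p = 0.00282), while DIABLO was low in all libraries and did not pass (0.11, adjusted p = 0.703). XAF1 and HTRA2 passed in all 21 alternatives, and the call of SEPTIN4 was lost with unfiltered log2(FPKM + 1) (adjusted p = 0.0892). XIAP itself did not pass.

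The list around the platforms of caspase-8 and caspase-2 holds adaptors and scaffolds, and also other genes of the same signalling, such as TRAF2, SHARPIN, RNF31 and MLKL. In it 6 of 12 genes fell and 0 rose by edgeR, with a median log2 fold change of -0.26. At an unadjusted p under 0.05 and by DESeq2 also 0 rose, and 20.0% of all genes fell. In the fit with the replicate block 8 of the 12 fell, with MLKL (adjusted p = 0.0147) and RNF31 (adjusted p = 0.039) added. PIDD1, the scaffold of the caspase-2 platform, had 12.7 ± 1.91 CPM in siSF3B6 and 23.5 ± 4.73 CPM in siNC, a log2 fold change of -0.89 (edgeR adjusted p = 0.000376), so CASP2 rose where PIDD1 fell. CRADD, the adaptor between PIDD1 and caspase-2, had 0.13 (adjusted p = 0.445), and FADD, the adaptor of caspase-8, had -0.02 (adjusted p = 0.837), though with the GC and length offset FADD was the 1 gene of the list that rose (0.16, adjusted p = 0.0195). TRADD (-0.54), TRAF2 (-0.44) and SHARPIN (-0.38), which act below TNF receptors, fell. Against siNC replicate 3 alone 1 of the 12 fell, PIDD1 (-0.54, adjusted p = 0.0498). Under the GC and length offset with the replicate block SHARPIN was at -0.04 and lost its call (adjusted p = 0.598), and the falls of TRADD (-0.23), TRAF2 (-0.20) and PIDD1 (-0.59) were smaller but passed.

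In the apoptosome list 2 of 5 genes rose and 2 fell, beside 20.8% and 20.0% of all genes tested. APAF1, the scaffold of caspase-9, had 37.3 ± 2.65 CPM in siSF3B6 and 29.8 ± 2.77 CPM in siNC (log2 fold change 0.32, edgeR adjusted p = 0.0146), and CYCS, cytochrome c, had 350 ± 25.2 CPM in siSF3B6 and 273 ± 38.7 CPM in siNC (0.36, adjusted p = 0.012). BAX (-0.51) and BAK1 (-0.31), which open the outer mitochondrial membrane, fell. Without siNC replicate 2 neither APAF1 (adjusted p = 0.0915) nor CYCS (adjusted p = 0.0777) passed, CYCS did not pass without siNC replicate 1 (adjusted p = 0.0626), and 0 of the 5 passed against siNC replicate 3 alone. By limma on log2(FPKM + 1) 0 of the 5 rose. With the GC and length offset and the replicate block the calls of APAF1 (0.16, adjusted p = 0.0726) and BAK1 (-0.13, adjusted p = 0.0953) were lost, while CYCS (0.20, adjusted p = 0.0259) and BAX (-0.33, adjusted p = 0.000737) passed with smaller values.

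Of 10 tested death receptors, related receptors and ligands 8 rose and 0 fell by edgeR (0 also at an unadjusted p under 0.05). The median log2 fold change of the 10 was 0.48. Among the 8 was TNF, at 3 to 5 reads per siNC library. With a filter of at least 1 CPM in 3 libraries 7 of 8 tested genes rose. Those of at least 5 CPM were led by the decoy receptor TNFRSF10D (0.83), the ligand TRAIL, TNFSF10 (0.70), and the receptors TNFRSF21 (0.53) and TNFRSF10A (0.50). Against siNC replicate 3 alone 6 rose. The death receptor FAS did not pass (-0.26, adjusted p = 0.167), but it fell in 4 alternatives, which were the GC and length offset (-0.42, adjusted p = 0.0108), that offset with the replicate block (adjusted p = 0.0204), the fit without siSF3B6 replicate 3 (-0.40, adjusted p = 0.0373) and the fit without the libraries numbered 3 (-0.35, adjusted p = 0.0177). Among 11 listed caspase substrates 3 rose and 5 fell (median -0.21), and with scaling by total reads alone 1 rose and 7 fell. The nuclear lamin LMNB1 (48.9 ± 2.47 CPM in siSF3B6 and 97.7 ± 3.02 CPM in siNC), the pore-forming protein GSDMD (-0.55) and the repair enzyme PARP1 (-0.48) were lower. The kinase ROCK1 (0.51) was higher. The GC and length offset took GSDMD to -0.27 and ROCK1 to 0.33, and both still passed. The inflammatory caspases CASP1 (0.13, edgeR adjusted p = 0.446) and CASP4 (0.13, adjusted p = 0.228) did not pass.

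Among 4 tested further proteins with BIR domains, the inhibitor of apoptosis fold of XIAP and BIRC2, 2 rose and 1 fell, the fall being near the share of all genes (20.0%). BIRC5 (survivin), which also acts in chromosome segregation, had 125 ± 3.29 CPM in siSF3B6 and 171 ± 10.3 CPM in siNC (SD, n = 3 each), a log2 fold change of -0.45 (edgeR adjusted p = 0.00051). BIRC3 (cIAP2), the closest relative of BIRC2, had 142 ± 20.8 CPM in siSF3B6 and 111 ± 7.27 CPM in siNC, a log2 fold change of 0.35 (adjusted p = 0.0136). The call of BIRC3 was lost without siNC replicate 2 (0.29, adjusted p = 0.075), under the GC and length offset (0.11, adjusted p = 0.0962), with scaling by total reads alone (adjusted p = 0.0678) and by limma on log2(FPKM + 1) (adjusted p = 0.0638). Without siSF3B6 replicate 3 BIRC3 passed at 0.22 (adjusted p = 0.0347). BIRC6, a large ubiquitin ligase, had 39.8 ± 3.74 CPM in siSF3B6 and 33.3 ± 2.45 CPM in siNC, and its call (0.26, adjusted p = 0.0433) was lost in 12 of 21 alternatives. With the GC and length offset 0 of these proteins rose, and 0 rose or fell against siNC replicate 3 alone.

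**Figure D4:**
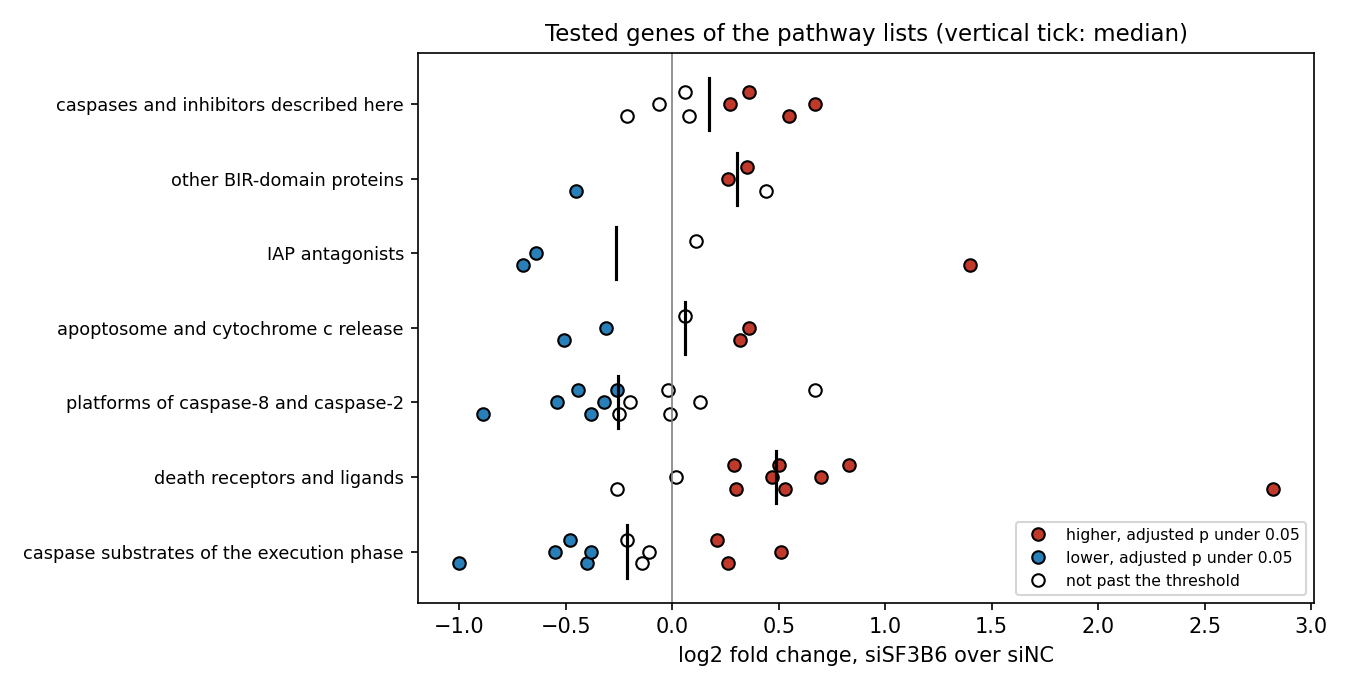
Log2 fold change, siSF3B6 over siNC (horizontal axis), of each tested gene in the 8 genes described here and in 6 lists of partners (rows), with filled symbols for an adjusted p under 0.05 and a tick at the row's median. The row of the list around the caspase-8 and caspase-2 platforms lies mainly left of 0 and the death receptor row mainly right of it. The row of the 8 caspase and inhibitor genes reaches from -0.21 (CASP10) to 0.67 (BIRC2).

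The genes whose deviations from their group means were most like those of BIRC2 over the 6 libraries, among 11298 others of at least 5 CPM, included SUCO (Pearson's r = 0.9995) and SNX6 (0.9993). Their log2 fold changes were -0.10 and 0.16. For CASP10, the gene with the lowest log2 fold change of the 8, they were TUBGCP5 (0.9936), SLAIN1 (0.9931) and LAMA3 (0.9842), with -0.11, 0.19 and -0.03. These values describe how the libraries vary within their groups and rest on few libraries that share depth and preparation.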

How the data were processed

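RNA-seq libraries of MDA-MB-231 cells, 3 siSF3B6 and 3 siNC, were grouped and numbered by their titles. The labels' cell line entry differs in its number between libraries, and the titles were followed. Whole-number read counts per gene (39323 genes) and FPKM values (39210 genes, 2 decimals) were deposited by the authors. The submitters' processing notes name HISAT2, DESeq2 and the build hg38. Neither the counting tool nor its strand setting nor the annotation release is stated there. Per the labels' protocols the libraries were strand-specific, by removal of the dUTP-marked strand.

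Counts were filtered with filterByExpr, scaled by TMM and tested with the quasi-likelihood test of edgeR 4.0.16 in R 4.3.3, siSF3B6 against siNC without a replicate block, with Benjamini-Hochberg adjustment over 16869 genes and a threshold of 0.05. A standard error is the absolute log2 fold change over the root of F. The test was also run on simulated counts, which had far fewer changed genes than these data and no library set apart. That run therefore does not show how the test behaves on these libraries. Levels are TMM-scaled CPM computed here from the counts. Permutation tests used log2(CPM + 0.5), and ratios used FPKM without a pseudocount. Alternatives tried were RLE factors, scaling by total reads alone (library size only), 2 other filters, DESeq2 1.42.0, voom from limma 3.58.1, robust dispersion, a replicate block, an offset for GC content and length (lowess, span 0.3, from GENCODE 29, which is not stated to be the authors' annotation), limma on log2(FPKM + 1) or log2(FPKM + 0.1), leaving out each library, leaving out both libraries numbered 3, and keeping siNC replicate 3 as the only control, its spread assumed to be that of siSF3B6.

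The chi-square between libraries of a group, averaged over genes, was 3.77 for siNC replicates 1 and 2. Against these, siNC replicate 3 stood at 75.1 and 60.3. In siSF3B6 it was 2.38 for replicates 1 and 2, and 18.3 and 22.1 for replicate 3 against them. No pair agreed within sampling noise, so all libraries were counted separately. Genes with at least 1 read numbered 30930 and 32041 in siNC replicates 1 and 2 and 24579 in siNC replicate 3. In siSF3B6 they numbered 24516 to 25566. Those with at least 10 reads numbered 16848 to 17085 in siNC and 16639 to 17241 in siSF3B6. What set siNC replicate 3 apart was not tested. Deviations from the group means of same-numbered libraries correlated at 0.17, 0.35 and 0.35 over 11299 genes. The replicate block took the numbers as pairs, which no label states and which these correlations bear out only in part. Replicate 1 of siSF3B6 correlated more with siNC replicate 2 (0.35) than with siNC replicate 1 (0.17). Calls gained with the block rest on that pairing. The genes and lists were chosen with earlier results of these data known. Beside the 8 genes, up to 4 called genes of at least 5 CPM were named from each list by absolute log2 fold change, and the 3 most alike in pattern for the genes with the largest and the lowest log2 fold change. Some genes that this rule would name, and the counts of 1 list, are not reported here. Genes named without having passed the threshold (such as FADD, CRADD, FAS, MLKL, RNF31, DIABLO, CASP1, CASP4 and MCUB) were chosen after their values were seen. Promoter sequences are from RefSeq.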

Additional observations from a re-analysis of the deposited data

How the results depend on the processing

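The count of genes changed, 6889 with all 6 libraries (3509 higher and 3380 lower), was 8052 with the replicate block, which changed no call among the 8 genes (4 higher and 0 lower with it). It was 5044 to 7571 when 1 library was left out, 3817 (1561 higher) with unfiltered log2(FPKM + 1), 9470 without the libraries numbered 3, and 2471 (1178 higher and 1293 lower) against siNC replicate 3 alone, which has fewer samples. Scaling by library size only turned the split to 2459 higher and 4558 lower. Of the 8 genes, 3 to 4 rose and 0 fell when 1 library was left out, and 1 rose against siNC replicate 3 alone. With the GC and length offset 2 of them fell, CASP10 and XIAP, and 1 with the offset and the replicate block. Directions turned with library size only for CASP9 (-0.047) and CFLAR (-0.027), for CFLAR with the offset, with and without the replicate block (-0.019), and for XIAP against siNC replicate 3 alone (0.054). The cause was not tested. The 4 ratios kept their direction in all 11 alternatives each. With the mean of same-numbered differences (the replicate block for ratios) CFLAR over CASP8 differed by -0.278 on the log2 scale. Library totals were 28504091 to 38546037 reads, and CASP10, the least abundant of the 8, had the widest interval of them.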
